A study of Rattus norvegicus with 12 samples.

Results

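Irx1, Irx2, Irx3, Pou3f3, Hnf4a and Tfap2b are transcription factors tied to the division of the nephron, the filtering unit of the kidney, into tubule segments. They were followed in rat kidney and in a cultured kidney tissue on 12 Affymetrix arrays. A probe set, the group of array probes that reads 1 transcript, was taken when its single gene symbol in the platform annotation was 1 of these 6 names. This gave 13 of the 31042 probe sets, and 6 of 14217 genes with a probe set of a single symbol. Kidneys came from embryos of day 13 (3 arrays, E13) and of day 18 (4 arrays, E18) and from rats 4 weeks old (3 arrays, Wk4), and 2 arrays held recombined tissue. Embryonic kidneys were processed as soon as they had been dissected. Recombined tissue was made from UBs formed in vitro, which had not branched, together with MM, and was kept in culture for 6 days. In kidney development UB stands for the ureteric bud and MM for the metanephric mesenchyme, the tissue that forms the nephrons. The design compared this tissue with the stages in vivo to see whether it takes the normal path, and counted a change of at least 3-fold. The labels used here give no strain or genotype. Nothing in them tells whether the arrays of a group stand for separate animals or cultures, and a p-value thus speaks only for the spread among these arrays, part of which may be technical.

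Nephrons form from condensed mesenchyme, which turns into an epithelial vesicle and then into a curved tube whose regions become podocytes, the proximal tubule, the loop of Henle and, farthest on, the distal tubule. Iroquois homeobox genes mark the intermediate region of that tube, the POU domain factor Pou3f3 (also called Brn1) is needed for the loop of Henle and distal tubule, and the AP-2 factor Tfap2b for the distal tubule. Hnf4a, a nuclear receptor, is needed for the proximal tubule and also works in liver.

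In these data each gene was read at its brightest tested probe set. There all 6 rose between E13 and E18, and all 6 fell short of their E18 level in recombined tissue. None was called different between recombined tissue and E13. Other tested probe sets of Irx3, Hnf4a and Tfap2b were not called lower in recombined tissue than at E18. Those of Irx3 and Hnf4a were also not called higher at E18 than at E13. Signal here means the authors' deposited value, on a linear scale with no unit. A difference is between group means of log2(signal + 271) and is given ± SE, where the constant 271, the 25th percentile over the whole table, is one that shrinks the differences of probe sets with a low signal. A gene was called higher or lower when its limma p, adjusted over all tested probe sets, was under 0.05 and the difference was at least 3-fold (1.58 on the log2 scale). Each gene was counted at its tested probe set with the highest mean signal. Of 11920 genes tested this way, 2.64% were called higher and 0.369% lower at E18 than at E13, against 6 and 0 of the 6 genes. Between recombined tissue and E18 the background was 3.1% higher and 2.37% lower, against 0 and 6. Recombined tissue against E13 had 5.03% higher and 1.05% lower, against 0 and 0, although Irx3 and Tfap2b had a limma p under 0.05 before adjustment (0.00104 and 0.0396), and Irx3 after it, with changes under 3-fold. From E18 to Wk4, 7.1% were higher and 6.67% lower, against 1 (Hnf4a) and 0. From E13 to Wk4 the figures were 11.8% and 9.44%, against 6 and 0, and recombined tissue against Wk4 had 8.92% higher and 9.33% lower, against 0 and 6. These comparisons share arrays, so the counts are not independent of each other. The 6 genes were chosen with earlier results of these data known, so the counts are a description and not a test of the set.

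Median signals of the arrays lay between 799 and 1020. Of 8 nephron progenitor genes 6 or 7 were above their array's 40th percentile at E13 and at E18, 5 or 6 at Wk4 and 6 in recombined tissue. Of 15 genes of the ureteric bud and collecting duct, 8 to 11 were above it at E13 and in recombined tissue. Of 36 proximal tubule genes it was 8 to 12 at E13 and 34 or 35 at Wk4. Most probe sets of an array lie above its 40th percentile by definition, so such counts alone do not show that a cell type was present. The summed signal of the progenitor genes was 37273 to 47598 at E13, 33705 to 41762 at E18 and 38373 to 41713 at Wk4. In recombined tissue it was 18440 and 23999. Compared with E13, limma called 2 of the 8 lower in recombined tissue (Eya1 and Meox1) and 0 higher. At Wk4 it called 4 lower than at E13 (Eya1, Meox1, Uncx and Hoxa11) and 1 higher, Crym, whose mean there was 33595.5. Deviations from the stage mean correlated positively between E13 replicate 1 and each of E18 replicates 1 to 3 (0.25 to 0.31). They also did between E18 replicate 4 and E13 replicates 2 and 3 (0.41 and 0.38). The other pairs of an E13 with an E18 array correlated negatively. Pairs within a stage all correlated negatively, which centring on a stage mean favours, so the sets rest on the pairs across stages. Centring also ties the signs of those pairs to each other, because the deviations of a stage cancel out. They are thus not independent agreements, and the sets are a description. The arrays so joined are called set 1 and set 2, and values within them are given where they matter. Against the kidneys, recombined tissue differed in its cell markers: the summed signal of 10 leukocyte markers was 132030 and 223000 on its arrays against 5052 to 98034 on kidney arrays, that of 11 stroma and matrix markers 664660 and 745210 against 103500 to 262570. The summed signal of 9 endothelial markers was lower, at 7219 and 14741 against 32001 to 74665, and that of 8 erythroid markers was 1655 and 3275 against 91908 to 403500. Single markers did not all follow their sum. Of 7 erythroid markers tested, limma called 3 lower and 1 higher, Hbe1, in recombined tissue than at Wk4. Of the 10 leukocyte markers it called 8 higher and 1 lower, Cd74, in that comparison. RNA of bulk tissue was measured, so fewer cells of a type and less RNA per cell cannot be told apart. The part of these cell markers in the results below was not tested.

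Irx1 is a homeobox factor of the Iroquois family. Its signal at E13 was 490, 688 and 469. At E18 it was 6859, 6641, 5772 and 4999, and at Wk4 6030, 6735 and 6092. Recombined tissue gave 513 and 640. The values thus fell into a low level, shared by E13 and recombined tissue, and a high level shared by E18 and Wk4, with no overlap between the levels. The difference between E18 and E13 was 2.95 ± 0.15 (limma adjusted p = 7.3e-09). That between Wk4 and E18 was 0.06 ± 0.15 (adjusted p = 0.767), and that between recombined tissue and E13 0.05 ± 0.18 (adjusted p = 0.855). Against E18, recombined tissue was lower by a difference of -2.90 ± 0.17 (adjusted p = 3.71e-08). A second Irx1 probe set, 1377177_at, stayed between 15.9 and 285 on all 12 arrays, below the 40th percentile of each, and was not tested.

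Irx2, the neighbour of Irx1, is measured by a single probe set. E13 arrays gave 191, 171 and 477, and recombined tissue 418 and 81.0, all below the 40th percentile of their arrays. E18 reached 1527, 1458, 1360 and 1133, and Wk4 1961, 1910 and 1679. As for Irx1, every E18 and Wk4 array lay above every E13 and recombined array, but here the low arrays were dim and far apart. The rise from E13 to E18 was 1.61 ± 0.24 (limma adjusted p = 0.000238), which passed the 3-fold limit by little. With E13 arrays this dim its size depends on the constant: it was 2.45 without it and 0.85, not called, with 4 times as much. It was also under the limit without E13 replicate 1 (1.51), E13 replicate 2 (1.47), E18 replicate 1 (1.56) or E18 replicate 2 (1.58), with quantile normalization (1.498), with arrays centred on their medians (1.52), and within set 2 (1.29, adjusted p = 0.145). Recombined tissue lay below E18 by a difference of -1.73 ± 0.27 (adjusted p = 0.000282). Without recombined replicate 2 the difference was -1.25 and no longer called.

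Irx3 showed 3 levels in the kidneys. Its signal was 915, 674 and 1160 at E13, and 4980, 4305, 4155 and 4936 at E18. At Wk4 it was 8359, 9017 and 8910. Recombined tissue stood at 372 and 493, under every E13 array. Irx3 rose by 2.05 ± 0.15 from E13 to E18 (limma adjusted p = 2.78e-07), or 1.51 and not called with 4 times the constant. The next step, to Wk4, was 0.90 ± 0.15 (adjusted p = 0.00014), with no overlap of the groups but less than 3-fold. In recombined tissue Irx3 lay below E18, with a difference of -2.79 ± 0.17 (adjusted p = 5.56e-08). Against E13 the difference was -0.74 ± 0.18 (adjusted p = 0.00593), also less than 3-fold. Another Irx3 probe set, 1394251_x_at, had the same order of groups at smaller differences: its means were 854 ± 39.7 (SD, n = 3), 1977 ± 686 (SD, n = 4) and 3371 ± 644 (SD, n = 3) at the successive stages and 515 ± 34.8 (SD, n = 2) in recombined tissue. Its E18 minus E13 difference of 0.95 ± 0.20 (adjusted p = 0.00396) was not called. Recombined minus E18 on this probe set, -1.47 ± 0.23, was also under 3-fold and not called, while recombined minus Wk4, -2.20 ± 0.24, was called. The x in such a name marks probes that may also match other transcripts. The third, 1386520_at, lay between 9.74 and 354 and was not tested.

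The Iroquois genes sit in clusters. In the current rat annotation (assembly GRCr8) Irx4, Irx2 and Irx1 follow each other on chromosome 1, and Irx6, Irx5 and Irx3 on chromosome 19, with 0 other protein-coding genes between them in either case. The cluster mates that have a probe set in these data gave the following values. Irx5 had a mean of 577 ± 27.4 at E13 (SD, n = 3), 371 ± 143 at E18 (SD, n = 4), 512 ± 277 at Wk4 (SD, n = 3) and 612 ± 108 in recombined tissue (SD, n = 2), and its difference between E18 and E13 was -0.42 ± 0.26 (limma adjusted p = 0.287). Irx4 was not tested, with a signal from 59.0 to 660. A test of the difference between cluster mates was not made.

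The windows around the annotated starts of Irx1, Irx2 and Irx3 are shown because these genes moved together. Each runs from 250 bases before to 50 after the start, 5′ to 3′ on the gene's strand, from RefSeq (GRCr8), and the capitals mark CG pairs. The window of Irx1 is chr1:33122872-33123171 on the plus strand, that of Irx2 chr1:32494881-32495180 on the minus strand and that of Irx3 chr19:31384868-31385167 on the plus strand.
Irx1: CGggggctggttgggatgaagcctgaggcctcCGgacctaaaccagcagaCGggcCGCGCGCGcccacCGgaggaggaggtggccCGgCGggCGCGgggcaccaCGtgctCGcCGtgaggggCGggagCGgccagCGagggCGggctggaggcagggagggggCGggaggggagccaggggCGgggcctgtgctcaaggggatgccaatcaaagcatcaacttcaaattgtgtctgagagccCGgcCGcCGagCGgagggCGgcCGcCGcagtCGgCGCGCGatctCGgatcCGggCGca
Irx2: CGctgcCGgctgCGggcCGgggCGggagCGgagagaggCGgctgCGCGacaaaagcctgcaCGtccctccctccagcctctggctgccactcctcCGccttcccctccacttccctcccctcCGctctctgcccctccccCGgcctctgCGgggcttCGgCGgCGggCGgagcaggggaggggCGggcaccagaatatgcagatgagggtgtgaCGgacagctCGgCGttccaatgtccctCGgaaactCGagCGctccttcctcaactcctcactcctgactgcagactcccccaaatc
Irx3: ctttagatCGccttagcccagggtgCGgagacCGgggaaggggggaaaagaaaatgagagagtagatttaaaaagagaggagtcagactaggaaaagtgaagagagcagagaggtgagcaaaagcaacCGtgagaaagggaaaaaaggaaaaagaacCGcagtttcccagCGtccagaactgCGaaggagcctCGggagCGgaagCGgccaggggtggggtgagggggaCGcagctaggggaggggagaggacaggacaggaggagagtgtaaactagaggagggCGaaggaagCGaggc
Irx1 had 35 CG pairs and 74.0% G and C in its window, Irx2 25 and 69.3%, and Irx3 13 and 55.7%. The median over all 33469 windows was 7 CG pairs and 51.7% G and C, so all 3 were richer in CG pairs than the median window. Windows were found for 4 of the 6 genes, these and Hnf4a.

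**Figure D1:**
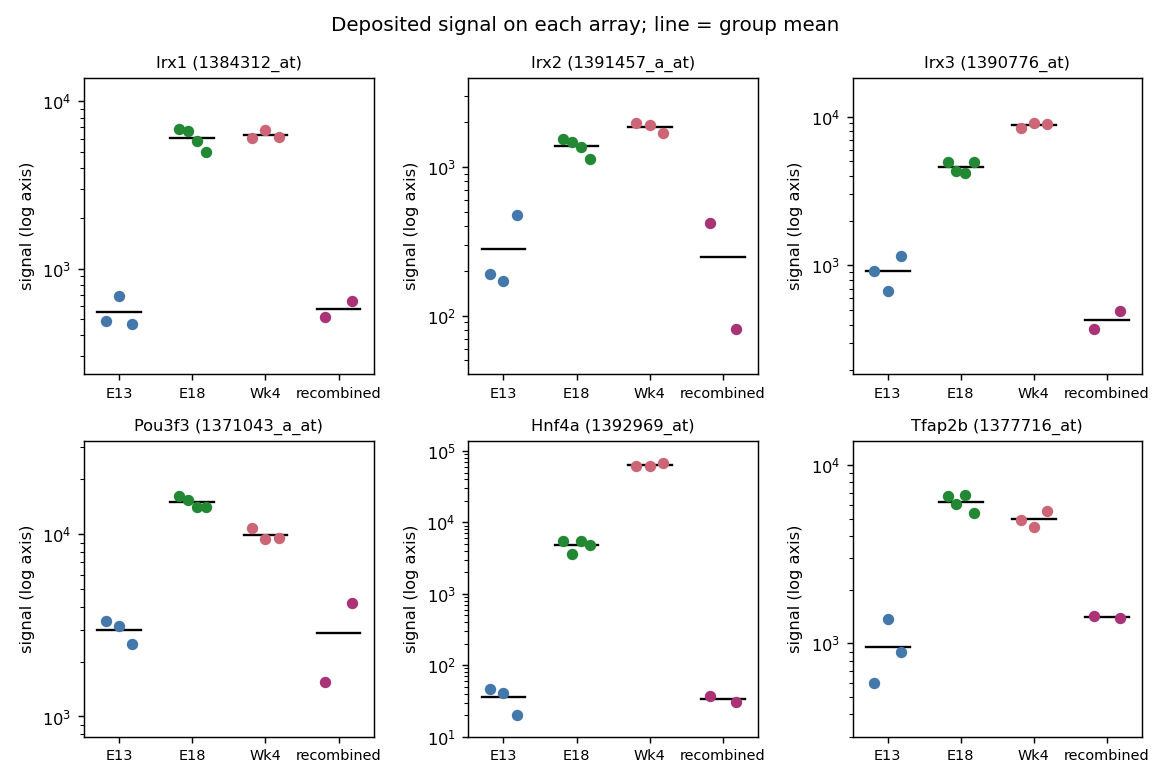
Deposited signal (log axis, no unit) of each array by group for the probe set that stands for each gene; points are arrays and the line is the group mean. E18 and Wk4 arrays lie above all E13 and recombined arrays in every panel, and Hnf4a alone goes up by a further large step from E18 (3606 to 5470) to Wk4 (61741 to 68813). The share of all genes whose arrays separate in this way was not counted.

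Pou3f3 is measured by a single probe set. Its signal was 3359, 3130 and 2503 at E13 and rose to 16205, 15465, 14021 and 14058 at E18. At Wk4 it was 10781, 9441 and 9531, under every E18 array. Recombined tissue gave 1547 and 4207, on either side of the E13 range. The rise from E13 to E18 was 2.22 ± 0.22 (limma adjusted p = 5.1e-06). The step from E18 to Wk4 was -0.58 ± 0.22 (adjusted p = 0.038), less than 3-fold, and the level at Wk4 was still 1.65 ± 0.24 above that at E13 (adjusted p = 2.5e-05), a difference not called without E13 replicate 3 (1.53), within set 1 (1.49) or with 4 times the constant (1.43). Recombined tissue lay below E18 by -2.41 ± 0.25 (adjusted p = 7.28e-06). Against E13 the difference was -0.19 ± 0.26 (adjusted p = 0.641), and its sign followed the array: -0.84 without recombined replicate 2 and 0.46 without recombined replicate 1. Below Wk4 it stood at -1.83 ± 0.26 (adjusted p = 3.76e-05), or -1.18 and not called without recombined replicate 1. Pou3f3 is also a neural factor. The summed signal of 17 nerve and glia markers was 44421 on recombined replicate 1 and 18446 on replicate 2, against 18891 to 22043 at E13, 13575 to 14806 at E18 and 4924 to 7000 at Wk4. Within that list Ncam1 had a mean of 1209 at E13 and 3027 at E18, Nefm 2996 and 4796 and Nefl 998 and 1554. Others fell, such as Isl1 from 4562 to 132, Dbh from 1476 to 246 and Stmn2 from 1406 to 309. The median difference of the 15 tested between E18 and E13 was -0.86. Limma called 0 of them higher and 2 lower, Dbh and Isl1. The part of nerve and glia in the Pou3f3 signal was not tested.

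Tfap2b has 3 probe sets, all tested. The one with the highest signal, 1377716_at, read 600, 1374 and 900 at E13, and 6693, 6004, 6796 and 5344 at E18. Wk4 arrays gave 4937, 4479 and 5553, and recombined arrays 1423 and 1383. The 2 recombined values lay just above the highest E13 array and far under the lowest array of E18 or Wk4. Tfap2b rose by 2.44 ± 0.18 from E13 to E18 (limma adjusted p = 3.24e-07) and differed by -0.30 ± 0.18 from E18 to Wk4 (adjusted p = 0.181). Recombined minus E18 was -1.95 ± 0.21 (adjusted p = 9.1e-06), or -1.55 and not called with 4 times the constant, and recombined minus Wk4 -1.65 ± 0.22 (adjusted p = 1.71e-05), the latter -1.57 and not called without Wk4 replicate 3. Against E13 recombined tissue differed by 0.49 ± 0.22 (adjusted p = 0.104). The other probe sets gave smaller differences. For 1392545_at the E18 minus E13 difference was 1.68 ± 0.14 and for 1384049_at 1.75 ± 0.15, both called. Recombined minus E18 came to -1.07 ± 0.16 and -0.90 ± 0.16, neither reaching 3-fold. Recombined minus Wk4 came to -0.44 ± 0.16 and -0.93 ± 0.17, again under 3-fold. Recombined minus E13 came to 0.61 ± 0.16 (adjusted p = 0.011) and 0.84 ± 0.17 (adjusted p = 0.00199), under 3-fold. Both recombined arrays lay above all E13 arrays on all 3 probe sets, and the share of all probe sets with this order was not counted. With all tested probe sets of a gene averaged, Tfap2b was no longer called between recombined tissue and E18 or Wk4, and Irx3 no longer between E18 and E13.

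Tfap2a, a paralogue of Tfap2b, was also read. Its mean was 1848 ± 166 at E13 (SD, n = 3), 2106 ± 175 at E18 (SD, n = 4), 887 ± 109 at Wk4 (SD, n = 3) and 338 ± 273 in recombined tissue (SD, n = 2). Recombined minus E13 was -1.87 ± 0.24 (limma adjusted p = 3.86e-05) and recombined minus E18 -2.04 ± 0.22 (adjusted p = 1.23e-05). Pou3f1, a relative of Pou3f3, differed by 0.54 ± 0.24 between E18 and E13 (adjusted p = 0.144). Of the 10 listed relatives of the Iroquois, POU class 3 and AP-2 families, 8 had a probe set and 3 were tested, Tfap2a, Irx5 and Pou3f1. Tfap2a was the 1 gene of these called, in both comparisons just given.

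Hnf4a showed the widest change of the 6 genes, and its 3 probe sets differed at E18. On 1392969_at the signal was 46.5, 40.5 and 19.8 at E13, and 37.2 and 30.6 in recombined tissue. E18 arrays read 5431, 3606, 5470 and 4775, and Wk4 arrays 61741, 61799 and 68813. E13 and recombined arrays overlapped at a level far below the 40th percentile of their arrays, which lay between 503 and 671, and each later stage stood apart. The rise from E13 to E18 was 4.04 ± 0.15 (limma adjusted p = 2.23e-10), that from E18 to Wk4 3.68 ± 0.15 (adjusted p = 8.41e-11) and that from E13 to Wk4 7.71 ± 0.16 (adjusted p = 2.15e-13). Recombined tissue differed from E13 by -0.01 ± 0.17 (adjusted p = 0.982) and lay below E18 by -4.04 ± 0.16 (adjusted p = 1.03e-09). With signals this low the size of a difference depends on the constant: without it the E18 minus E13 difference was 7.15, and with 4 times the constant 2.39.

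On 1369289_at Hnf4a read 84.3, 316 and 73.8 at E13 and 358, 365, 462 and 500 at E18, all below the 40th percentile, then 6791, 5809 and 6220 at Wk4. Recombined arrays gave 19.4 and 216. The E13 to E18 difference there was 0.73 ± 0.23 (limma adjusted p = 0.0368) and not called. On 1382496_at the signal was 48.2, 63.4 and 51.8 at E13, 74.3, 101, 150 and 27.6 at E18, and 3486, 3621 and 4497 at Wk4, so E13 and E18 overlapped (0.13 ± 0.20, adjusted p = 0.701), with 43.3 and 78.2 in recombined tissue. The 3 probe sets therefore shared the rise to Wk4, by 3.68 ± 0.15, 3.24 ± 0.23 and 3.53 ± 0.20 from E18, and all were called lower in recombined tissue than at Wk4. Between E18 and E13, and between recombined tissue and E18, 1392969_at was called and the other 2 were not. Those 2 passed the low-signal filter through their Wk4 arrays alone. What sets the probe sets apart at E18 was not tested.

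**Figure D2:**
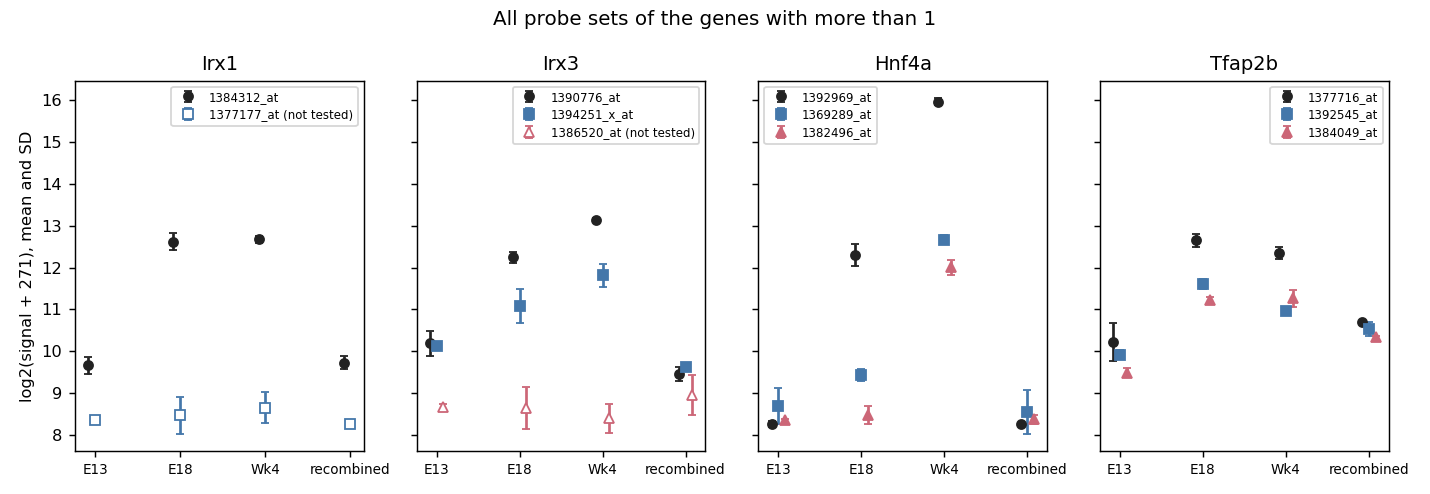
Mean and SD of log2(signal + 271) in each group for every probe set of the 4 genes that have more than 1; open symbols are probe sets that were too dim to be tested. From E13 to E18 the Hnf4a probe set 1392969_at differs by 4.04 on the log2 scale, and the other two by 0.73 and 0.13, neither called. Levels of different probe sets are not comparable.

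Hnf4a has 2 annotated starts in RefSeq (GRCr8), both on the plus strand, and their windows are shown because this gene changed most of the 6. In the windows, chr3:172605970-172606269 and chr3:172641586-172641885, capitals mark GTTAAT on either strand, the core of sites bound by the HNF1 factors.
Hnf4a, first start: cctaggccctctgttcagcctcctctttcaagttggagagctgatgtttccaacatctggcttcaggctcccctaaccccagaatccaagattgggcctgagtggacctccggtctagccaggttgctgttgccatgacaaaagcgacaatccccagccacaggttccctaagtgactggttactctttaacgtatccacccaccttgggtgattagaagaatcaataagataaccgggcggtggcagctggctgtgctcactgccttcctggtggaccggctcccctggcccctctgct
Hnf4a, second start: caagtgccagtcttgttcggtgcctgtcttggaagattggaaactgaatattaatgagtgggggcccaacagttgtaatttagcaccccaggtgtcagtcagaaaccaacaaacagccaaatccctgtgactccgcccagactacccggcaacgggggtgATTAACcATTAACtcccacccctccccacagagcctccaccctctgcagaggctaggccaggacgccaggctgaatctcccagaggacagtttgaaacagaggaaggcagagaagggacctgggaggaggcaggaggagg
The second window held 2 such matches, 90 and 83 bases before the start and both on the opposite strand, and the first window held 0. Of all 33469 windows, 7.45% held at least 1. The windows of Irx1, Irx2 and Irx3 held none. A match is a description of these letters, and the arrays do not say which start was used.

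The liver markers were examined beside Hnf4a because it is also a liver gene. Of 9 with a probe set, 0 or 1 were above the 40th percentile on any E13 array, 2 or 3 at E18, 4 or 5 at Wk4 and 0 in recombined tissue, and their summed signal ran from 1110 to 2470, 5026 to 5948, 4306 to 11295 and 1670 to 2015 in these groups. Afp, alpha-fetoprotein, had 41.0 ± 26.3 at E13 (SD, n = 3), 2942 ± 223 at E18 (SD, n = 4) and 454 ± 522 at Wk4 (SD, n = 3), and Alb, serum albumin, was between 203 and 1092 at E18 and between 611 and 4827 at Wk4. Their part in the Hnf4a signal was not tested.

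**Figure D3:**
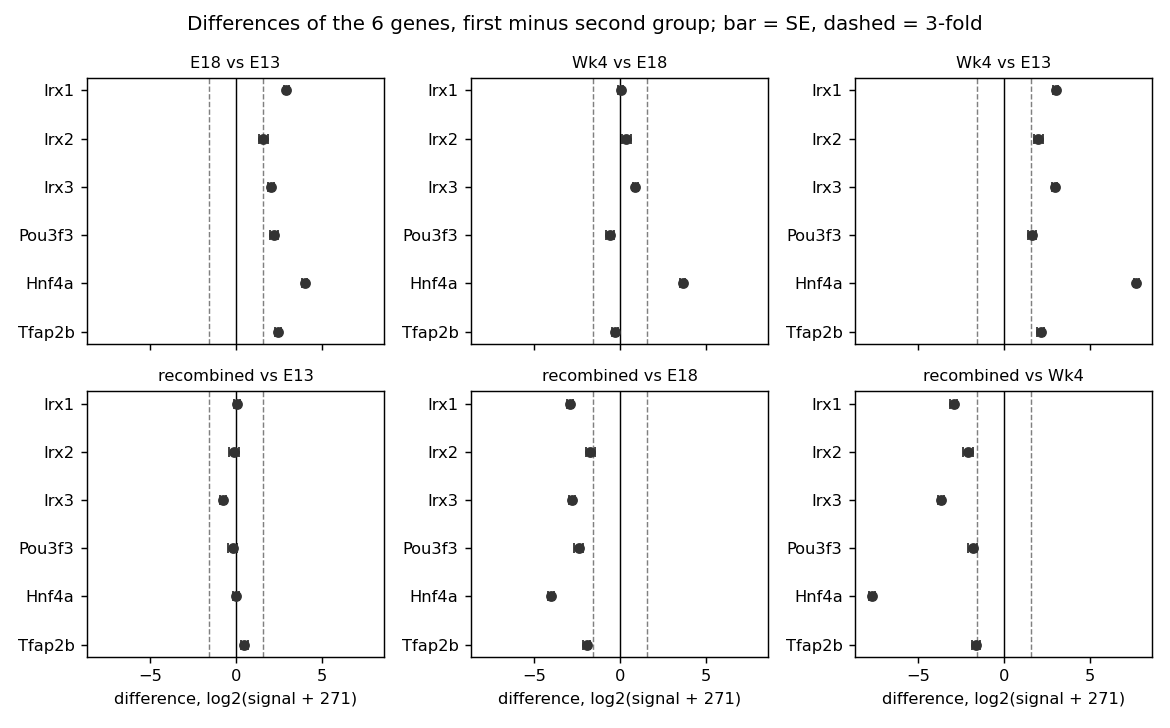
Difference between group means of log2(signal + 271), first minus second group, for the probe set that stands for each of the 6 genes; bars are SE and dashed lines mark 3-fold. All 6 lie beyond the line to the right in E18 vs E13 and to the left in recombined vs E18, while those of recombined vs E13 run from -0.74 (Irx3) to 0.49 (Tfap2b).

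Segment genes were read next, from lists of known markers. The shares of all genes called in each comparison, given above, are the background for the counts here and below. Among 35 tested genes of the proximal tubule, the segment that needs Hnf4a, 19 were called higher at E18 than at E13 and 0 lower, with a median difference of 1.73 against 0.03 over all genes. From E18 to Wk4, 31 rose and 0 fell (median 3.57 against -0.15). Pdzk1, which anchors brush border transporters, rose by 4.41 ± 0.15 and the peptidase Dpp4 by 3.85 ± 0.19 in the first step. Slc22a2, an organic cation transporter, rose by 5.79 ± 0.23 and the urate transporter Slc22a12 by 5.47 ± 0.27 in the second. From E13 to Wk4, 32 rose and 0 fell, with Slc34a1, the phosphate cotransporter, at 8.14 ± 0.27 and Fbp1, an enzyme of glucose synthesis, at 7.79 ± 0.30. Recombined tissue had 15 of the 35 lower and 0 higher than E18 (median -1.35 against -0.08), with Pdzk1 at -4.62 ± 0.17 and Fbp1 at -4.06 ± 0.32. Than Wk4 it had 30 lower and 0 higher, led by Fbp1 (-8.40 ± 0.33) and Pck1, another enzyme of glucose synthesis (-7.63 ± 0.20). Against E13, 2 were higher and 0 lower (median 0.20 against -0.03): Slc13a3, a dicarboxylate carrier, by 2.34 ± 0.24 and Anpep, an aminopeptidase, by 2.17 ± 0.15. These 2 of 35 are close to the 5.03% of all genes called higher in that comparison. Hnf4a was not called in that comparison, at 37.2 and 30.6 on its brightest probe set in recombined tissue. Which cells of this tissue gave the signals of Slc13a3 and Anpep was not tested.

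Of 14 loop of Henle genes 4 were called higher and 0 lower at E18 than at E13 (median 1.31). The largest rise was that of Slc12a1, the salt cotransporter of the thick ascending limb, from 141 ± 64.2 (SD, n = 3) to 15991 ± 2042 (SD, n = 4), by 5.31 ± 0.16, then that of Bsnd, a chloride channel subunit, by 2.25 ± 0.20, while Umod, the gene of uromodulin, was at 174 ± 79.0 and 245 ± 98.3. Umod then reached 136966 ± 8528 (SD, n = 3) at Wk4, a step of 8.07 ± 0.22, followed by Egf, the epidermal growth factor, with 6.81 ± 0.19. Between E18 and Wk4, 10 of the 14 rose and 0 fell, whereas Irx1, Irx2, Irx3 and Pou3f3 differed by less than 3-fold. Between recombined tissue and E13 limma called 0 of the 14, with 4 at a p under 0.05 before adjustment. The widest differences there were those of the sorting receptor Sorl1 (-1.15 ± 0.20, adjusted p = 0.000476) and Enpp2, which makes lysophosphatidic acid (1.10 ± 0.19, adjusted p = 0.000426), both under 3-fold. Against E18, 5 were lower and 0 higher (median -1.07), Slc12a1 at -5.39 ± 0.18 and Bsnd at -2.23 ± 0.23. Against Wk4, 12 were lower and 0 higher, Umod at -8.17 ± 0.26 and Egf at -7.22 ± 0.23.

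The distal tubule, the segment of Tfap2b and Pou3f3, had 4 of 18 genes higher and 0 lower at E18 than at E13 (median 0.22), Fxyd2, a subunit that tunes the sodium pump, by 4.60 ± 0.18 and Calb1, a calcium-binding protein, by 3.10 ± 0.21. Between E18 and Wk4, 8 were called, all higher, with the potassium channel Kcnj16 (4.16 ± 0.18) and the kallikrein Klk1 (3.81 ± 0.15) ahead and among them Slc12a3, the thiazide-sensitive cotransporter, whose mean went from 1299 ± 480 (SD, n = 4) to 4515 ± 618 (SD, n = 3). Recombined tissue did not follow 1 direction here. Against E13 it had 3 higher and 0 lower, Fxyd2 (3.59 ± 0.21), S100g, a calcium-binding protein (6.13 ± 0.37), and Hsd11b2, which inactivates glucocorticoids (2.50 ± 0.17). Against E18 it had 2 higher, S100g and Hsd11b2, and 2 lower, Calb1 and Kcnj16, and the median was 0.12. Against Wk4 it had 1 higher, S100g, and 7 lower, Kcnj16 (-6.75 ± 0.22) and Calb1 (-5.81 ± 0.25) with the widest differences. Calb1 is also on the list of ureteric bud and collecting duct genes, so it does not stand for the distal tubule alone.

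HNF4 sites were sought in the start windows of the listed genes. The motif CAAAGTCCA, on either strand, was present in windows of 2 of 36 proximal tubule genes that have one, Pdzk1 and Slc3a1. It was in 0 of 14 loop of Henle and 0 of 18 distal tubule genes, and in 0.391% of all windows. A gene counted if any of its windows held the motif, so the share of windows is not a like measure. The motif was chosen after several strings had been looked for, and the counts are a description. Both genes rose at E18 and at Wk4, Slc3a1, a subunit of the cystine carrier, from 1583 ± 494 (SD, n = 3) through 10917 ± 1032 (SD, n = 4) to 169406 ± 14393 (SD, n = 3). So did most of their list, with 32 of 35 tested called higher at Wk4 than at E13. The matches are shown with 30 bases on each side, 5′ to 3′ on the gene's strand, with the motif in capitals; that of Pdzk1, chr2:187064956-187065024 on the plus strand, starts 9 bases before the gene's start, and that of Slc3a1, chr6:15394800-15394868 on the minus strand, 89 bases before it.
Pdzk1: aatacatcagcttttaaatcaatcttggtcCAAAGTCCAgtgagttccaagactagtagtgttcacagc
Slc3a1: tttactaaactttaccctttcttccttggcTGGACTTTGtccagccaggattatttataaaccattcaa
The letters of Slc3a1 read the motif on the opposite strand. Binding was not measured here.

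Other factors of the nephron and collecting duct served as a comparison. Limma called 7 of 24 higher and 0 lower at E18 than at E13, with a median difference of 0.98 against 0.03 over all genes. Tfcp2l1, a collecting duct factor, rose by 3.29 ± 0.23, Sim2 by 3.00 ± 0.22, Pax8, a factor of the early nephron, by 2.56 ± 0.28, Esrrg, an orphan nuclear receptor, by 2.26 ± 0.14 and Lhx1, needed for the first epithelium, by 1.89 ± 0.32. From E18 to Wk4 the list split: Nr1h4, the bile acid receptor, rose by 4.04 ± 0.25, and Wt1 (-2.79 ± 0.15), Osr2, Lhx1 and Emx2 fell. Recombined tissue had 9 of the 24 lower and 0 higher than E18 (median -1.19), with Esrrg at -3.04 ± 0.16 and Mecom, a zinc finger factor, at -2.51 ± 0.21. Against E13, Osr2 was higher by 3.26 ± 0.32 and Mecom lower by -2.26 ± 0.22, and the median was -0.21. None of the 6 genes was called in that comparison, and a test of the difference between genes was not made.

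**Figure D4:**
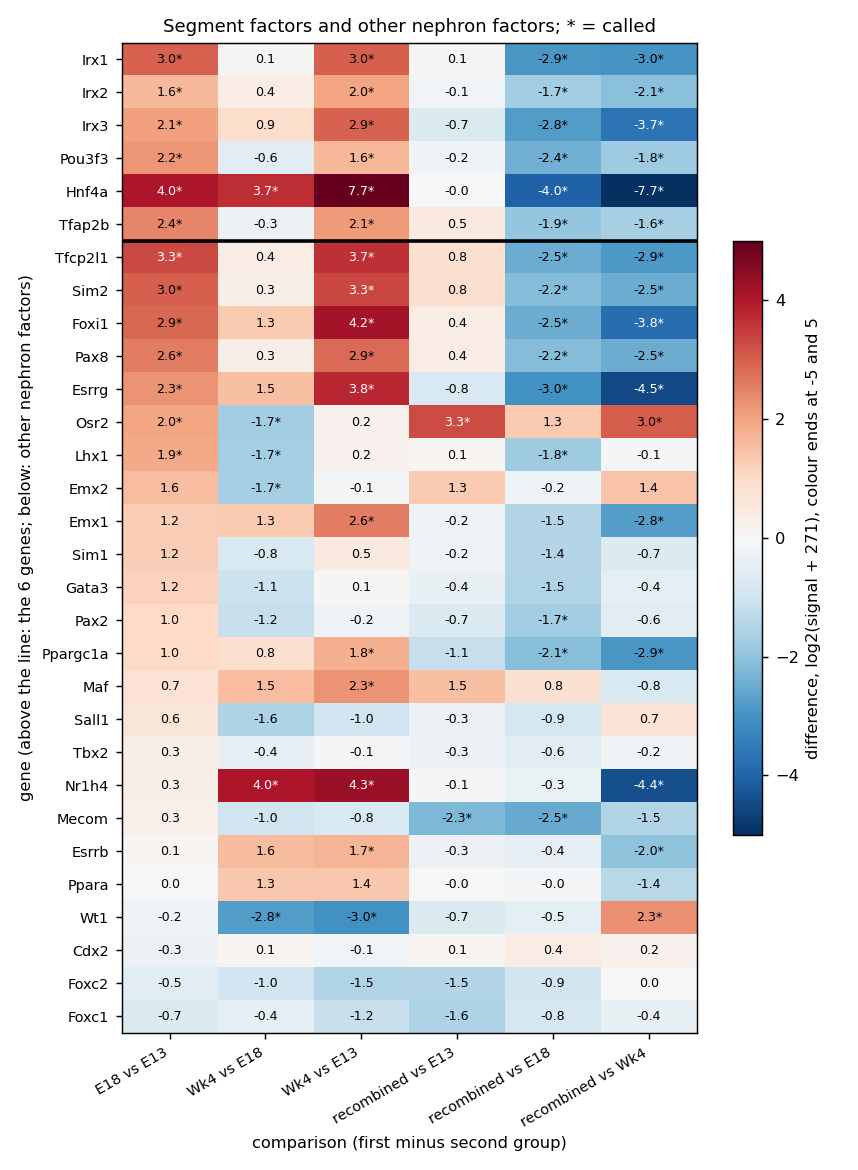
Differences of log2(signal + 271), first minus second group, for the 6 genes (above the line) and 24 other nephron and collecting duct factors (below, sorted by E18 vs E13); colour and number give the difference and an asterisk marks a call. The 6 genes are called in the same 4 columns, and in E18 to Wk4 only Hnf4a among them is called, while Osr2 stands out in recombined tissue with 3.3 against E13.

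The genes whose pattern was most like each of the 6 were taken by Pearson's r of log2 values over the 12 arrays, which share their groups, so r mostly reflects the group means and is given as a description. Irx1 was closest to Cldn8, a tight junction claudin (r = 0.99), Vav3 (0.99) and Septin4 (0.99). For Irx2 these were Clic3, Osbpl3 and Vamp5 (each 0.97). Irx3 came nearest to Spint1, an inhibitor of epithelial proteases, and to Esrrg (each 0.99), then Asb9 (0.98). For Pou3f3 the nearest was Cdh1, the epithelial cadherin (r = 0.99), whose mean signals were 2645, 13273, 9053 and 2510 at E13, E18, Wk4 and in recombined tissue, the same order as those of Pou3f3. Sh2d4a (0.99) and Myo5c (0.98) came next. Hnf4a was closest to Paqr5, Slc7a13, an amino acid transporter, and Car4, a membrane carbonic anhydrase (r = 0.998, 0.997 and 0.997). Tfap2b had Agtr1b, an angiotensin receptor, and B4galnt1 (each 0.97) and Ptpn3 (0.97).

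Among themselves the 6 genes correlated over the 12 arrays from 0.75 (Pou3f3 with Hnf4a) to 0.97 (Irx1 with Tfap2b). Their steps after E18 differed: Hnf4a went on rising, Irx3 differed by 0.90, Irx1, Irx2 and Tfap2b by 0.06, 0.37 and -0.30, and Pou3f3 by -0.58. Within set 1 the step from E13 to E18 ran from 1.89 (Irx2) to 3.98 (Hnf4a) and within set 2 from 1.29 (Irx2) to 4.07 (Hnf4a), where E13 in set 1 and E18 in set 2 had a single array, whose spread was taken from the other groups.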

How the data were processed

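Rat kidney and recombined tissue RNA was labelled as biotinylated cRNA for Affymetrix arrays, per the labels' protocols. The authors deposited linear signal intensity values from GCOS software, per the submitters' processing notes, whose settings were not found in the labels. Trimmed by 2% at either end, the mean signal was 2500.6 to 2500.9 on every array: arrays had been scaled to each other, and a change in total RNA would not show.

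The 57 control probe sets were left out. Values were used as log2(signal + 271), on which array medians spanned 0.271, with no further scaling. A probe set was tested if 2 or more arrays had it over the 40th percentile of that array (22599 kept, 8443 removed; 11 of the 13 of the 6 genes kept). Members were named by the single symbol of the platform annotation; list genes by the current symbol of its gene ID (20758 of 20826 single-symbol probe sets matched; 436 probe sets had several symbols and 9780 none). All 12 arrays entered 1 limma 3.58.1 fit (R 4.3.3, eBayes with an intensity trend, 8 residual degrees of freedom), two-sided, with p-values adjusted by Benjamini-Hochberg over those tested. The limma call between E18 and E13 was checked on simulated, normally distributed log2 values of the kept probe sets. The other steps and comparisons were not checked in this way. The members and lists were chosen with earlier results of these data known, and the sets of embryonic arrays after the data were seen. The rule for named genes took every probe set of the 6 genes, the 2 genes of a list with the widest difference per comparison with other list genes as examples, and the 3 genes most correlated with each of the 6. Lists of other cell types are given as summed signals, as counts of genes above the 40th percentile or as both, some with example genes. A list of 7 podocyte genes was also read and is not given. The HNF1 and HNF4 motifs were chosen after several motif strings had been looked for in the windows. Alternatives covered the constant, the scaling, the filter, the arrays fitted, the variance model, the replicate number, the fold, each array left out and probe sets of a gene averaged.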

Additional observations from a re-analysis of the deposited data

Results flagged for a closer look

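The dim Irx1 probe set 1377177_at read 285 on E18 replicate 2, far from the other E18 arrays, which ran from 15.9 to 50.2, and all 4 values lay below the 40th percentile of their arrays. Its gap to the next value was 0.873 of the range, above Dixon's 95% critical value for 4 samples. The check was made for the 13 probe sets at E18, and chance passes that limit in about 1 in 20 groups.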

How the results depend on the processing

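With 2 or 3 arrays in 3 of the 4 groups, precision is limited by the number of arrays, and dim values of Irx2 and Hnf4a have no lower bound of their own. Counts of called genes among the 6 left the main value by over 1.5 times in 3 cases: with no fold in the call, 3 instead of 1 between Wk4 and E18 and 1 instead of 0 between recombined tissue and E13, and with 4 times the constant, 3 instead of 6 between recombined tissue and Wk4 (lost: Irx2, Pou3f3 and Tfap2b). Elsewhere 4 times the constant left 4 of 6 for E18 against E13 (lost: Irx2 at 0.85 and Irx3 at 1.51), Wk4 against E13 (lost: Irx2 and Pou3f3) and recombined tissue against E18 (lost: Irx2 and Tfap2b). Leaving out single arrays gave 5 to 6 calls in each of these and for recombined tissue against Wk4, and 1 and 0 in the remaining comparisons.

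Signs turned only for differences that were not called. Irx1 between Wk4 and E18 was -0.028 with the replicate block and within set 1 (-0.03 to 0.12 without single arrays). Against E13 in recombined tissue, Irx1 was -0.12 with quantile normalization and -0.063 with median centring (-0.054 to 0.172 without single arrays). Hnf4a there was 0.013 without the constant, 0.030 with the replicate block, 0.0039 with the set as a covariate and 0.018 within set 2 (-0.045 to 0.018 without single arrays). Irx2 was 0.091 within set 1 (-0.60 to 0.37 without single arrays), and Pou3f3 ran from -0.84 to 0.46 without single arrays.

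The replicate numbers did not pair the arrays: of 15 same-numbered pairs across groups, 1 deviated together with a correlation over 0.1. With the replicate block the 6 genes kept the same counts, 6, 1, 6, 0, 6 and 6 over the 6 comparisons in the order E18 vs E13, Wk4 vs E18, Wk4 vs E13 and recombined tissue vs E13, E18 and Wk4. Over all probe sets, the calls between E18 and E13 went from 529 to 1038 without the constant and 188 with 4 times the constant, to 1503 at 2-fold and to 4468 with no fold.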

Other observations

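Some genes of the tubule lists and of the list of other factors were called higher in recombined tissue than at E13, where none of the 6 factors was. Over all genes 5.03% were called higher in that comparison, so the genes named here are examples. The zinc finger factor Osr2 had 9215 ± 1326 on recombined arrays (SD, n = 2), compared with 721 ± 116 at E13 (SD, n = 3) and 3841 ± 1554 at E18 (SD, n = 4). Hsd11b2 was at 27602 ± 2005 there, against 4694 ± 706 at E13 and 4098 ± 747 at E18, and above the 19680 ± 1619 of Wk4 (SD, n = 3). S100g reached 14079 and 45720 on the recombined arrays and at most 1758 on any kidney array. Fxyd2, at 133 ± 71.4 at E13, was at 4734 ± 1874 in recombined tissue and 9436 ± 1016 at E18.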
